A study of Mus musculus with 3 samples.

Results

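The regions described here are places on mouse liver chromatin where a peak of mTOR and a peak of the estrogen-related receptor ERRα stood next to each other without sharing a called bin. Both proteins were mapped by chromatin immunoprecipitation and sequencing (ChIP-seq), with coverage averaged over 200-bp bins of chromosomes 1 to 19. A bin was called for a ChIP when its coverage exceeded 2.0 and was at least 3-fold over the control library made with rabbit immunoglobulin G (IgG), and adjacent called bins were merged into a region. The members are mTOR regions that overlapped no ERRα region but had one whose nearest edge lay at most 1000 bp away, and each was paired with that nearest ERRα region. Positions are on the mouse build mm9, and the regions are given by position, without gene names or sequence, because no annotation or genome of that build was used here. There were 659 members among 9053 mTOR regions, and their partners were 642 of 21679 ERRα regions. Of the covered bins, 0.137% were called for mTOR and 0.346% for ERRα. The members were chosen by the coverage of all 3 libraries, so levels, folds and distances are descriptions and carry no test.

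The mTOR ChIP, the ERRα ChIP and the IgG control were made from liver chromatin of C57Bl/6 males that were 2 to 3 months old, with no treatment or genetic change named in the labels. Each group was 1 library, and 8 separate precipitations, all from a chromatin pool of 26 livers, had been combined for mTOR and again for ERRα. No value therefore has a replicate check, and differences between animals cannot be seen. The tracks were built from 62500000 tags for mTOR, 74200000 for ERRα and 68800000 for IgG, and all levels below are coverage scaled to 10000000 tags. On that scale the minimum level of 2.0 was about 16.7 tags of the mTOR library or 19.8 tags of the ERRα library in a bin, and the median IgG level in the highest mTOR bin of the members was about 4.75 tags. Folds over IgG are therefore imprecise, and the 95% intervals given with them are exact counting intervals on approximate tags, which cover counting error only and do not allow for the choice of regions.

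mTOR is the serine/threonine kinase at the centre of the complexes mTORC1 and mTORC2, which link nutrients and insulin to growth and lipid synthesis in the liver. It has also been found on chromatin, including at genes transcribed by RNA polymerase III. ERRα is an orphan nuclear receptor that binds DNA directly at estrogen-related receptor response elements and is known for its control of genes of the citric acid cycle, fatty acid oxidation and the respiratory chain. The series title places both in a study of fatty liver caused by rapamycin, an inhibitor of mTORC1; no rapamycin-treated library was analysed here. The question for these regions is how the peaks of the kinase and of the receptor are arranged where they come close but do not coincide. The tissue was whole liver, so whether neighbouring peaks lay on the same chromosome copy, in the same cell, or in different cells cannot be told apart.

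The members with the clearest pairs had tall peaks on both sides and, in most, far lower coverage between them. At chr9:42914001-42914800 coverage in the highest mTOR bin was 17.0 for mTOR, 0.913 for ERRα and 0.2 for IgG. In the highest bin of its partner, chr9:42912601-42913200, it was 1.42 for mTOR, 10.9 for ERRα and 0.4 for IgG. mTOR was 43.1-fold over IgG (21.2 to 652) on its side and ERRα 18.5-fold (9.50 to 93.5) on its side. In the region of the other the folds were far smaller, at 2.71 for mTOR (1.001 to 14.1) and 2.78 for ERRα (0.864 to 39.7). The summits lay 1397 bp apart, and of all 659 pairs this had the largest smaller fold.

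The second pair lay on chromosome 19, where the mTOR region chr19:3576001-3576600 had an ERRα region 1000 bp away on both sides. Coverage in its highest bin was 8.18 for mTOR, 0.716 for ERRα and 0.2 for IgG, which put mTOR at 20.9-fold (9.97 to 315). The partner at chr19:3574201-3575000 reached 0.978 for mTOR, 10.3 for ERRα and 0.5 for IgG, a 14.9-fold ERRα excess (7.77 to 58.9). The ERRα region on the other side, chr19:3577601-3578000, was lower, at 4.39 for ERRα and 0.7 for IgG (5.10-fold, 2.82 to 19.1). An mTOR peak therefore stood between a pair of ERRα peaks, and mTOR was 1.68-fold over IgG at the lower-coordinate and 1.25-fold at the higher-coordinate ERRα region.

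On chromosome 15 the mTOR region chr15:82185201-82185800 stood 600 bp from a broad ERRα region of 1600 bp, chr15:82183001-82184600. Coverage was 11.9 for mTOR, 2.10 for ERRα and 0.682 for IgG in the highest mTOR bin, and 0.940, 12.2 and 0.657 in the same order of libraries in the highest ERRα bin. mTOR was 13.8-fold over IgG (8.14 to 51.2) on its side and ERRα 14.5-fold (8.35 to 52.0) on its side. These folds were the closest to each other among the first 3 pairs.

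On chromosome 14 the arrangement was less simple, because the ERRα peak stood between mTOR peaks. The member chr14:51684201-51685200 had 101 for mTOR, 0.796 for ERRα and 0.4 for IgG, and its 169-fold excess (90.2 to 852) was the largest mTOR fold of any member. Its partner chr14:51683601-51684200, which touched it, had 5.57 for mTOR, 12.6 for ERRα and 0.793 for IgG in the highest ERRα bin (ERRα 12.8-fold, 7.74 to 41.7). mTOR was also called in that ERRα bin, at 5.81-fold over IgG. The call belonged to another mTOR region, chr14:51683201-51684000, which held the ERRα summit and reached beyond the partner on its far side. The highest bin of that mTOR region had 28.0 for mTOR, 9.98 for ERRα and 1.13 for IgG. Among all members, 45 had such a partner, whose ERRα region overlapped another mTOR region.

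**Figure D1:**
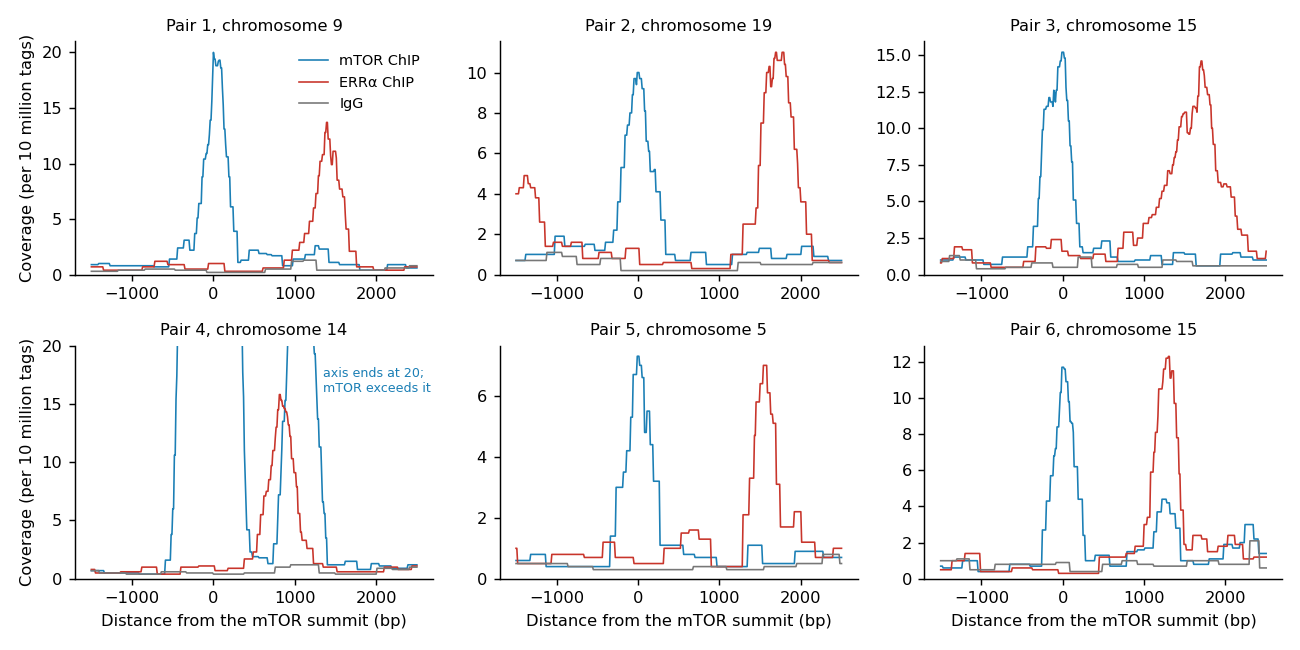
Coverage of the mTOR ChIP, the ERRα ChIP and IgG (per 10000000 tags, vertical axis) against distance from the mTOR summit (bp, horizontal axis) at the first 6 pairs by the smaller of both folds, each 1 library per line and turned so that the ERRα partner lies on the right. The peaks stand apart in pairs 1, 2, 3 and 5, though in pair 1 mTOR still reaches 2.6 under the ERRα peak. In pair 4 the ERRα peak lies between mTOR peaks that exceed the end of the axis at 20, and in pair 6 a low mTOR peak lies under the ERRα peak.

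The remaining 6 of the 10 pairs with the largest smaller fold had smaller folds of 9.44 to 11.5. At chr5:100845201-100845800 coverage was 5.95 for mTOR, 0.596 for ERRα and 0.3 for IgG (mTOR 12.3-fold), and its partner chr5:100843601-100844200, 1000 bp away, had 0.734, 6.19 and 0.355 (ERRα 11.5-fold). At chr15:82012801-82013200 the values were 8.31 for mTOR, 0.3 for ERRα and 0.593 for IgG (mTOR 10.7-fold). Its partner chr15:82014001-82014400 carried both proteins, with 3.84 for mTOR, 10.9 for ERRα and 0.7 for IgG, so that mTOR was also 4.49-fold over IgG there (2.42 to 17.2). A wide mTOR region at chr1:173031801-173033600, at 1800 bp the largest width of any member, reached 40.8 for mTOR, 0.656 for ERRα and 0.5 for IgG (mTOR 58.6-fold). It touched the ERRα region chr1:173033601-173034000, where the values were 1.30, 9.61 and 0.760 (ERRα 10.2-fold).

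Of the last 3 of these 10, chr6:72533601-72534200 lay 200 bp from its partner chr6:72532801-72533400 and had 11.4 for mTOR, 1.74 for ERRα and 0.980 for IgG, an mTOR fold of 9.87. The others touched their partners. At chr17:46576001-46576400 coverage was 5.94 for mTOR, 1.28 for ERRα and 0.3 for IgG, with the ERRα summit 268 bp away. At chr5:130230801-130231200 it was 4.75 for mTOR, 1.86 for ERRα and 0.324 for IgG, with the ERRα summit 486 bp away. In these touching pairs the ERRα ChIP was raised in the mTOR bin as well, at 2.96-fold over IgG (1.10 to 22.0) on chromosome 17 and 3.93-fold (1.62 to 29.5) on chromosome 5, where its level missed the minimum of 2.0.

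Such pairs were the minority. Both folds reached 10 in 7 members and 5 in 107 members (16.2%). Over all members the median mTOR fold in the highest mTOR bin was 4.31, with quartiles of 3.51 and 5.82, and the median ERRα fold in the highest bin of the partner was 4.53 (3.69 and 6.53). Median levels were 2.95 for mTOR and 0.518 for IgG in the mTOR bins, and 3.74 for ERRα and 0.617 for IgG in the ERRα bins. The ERRα level was the higher peak level in most pairs, since mTOR in its bin exceeded ERRα in the partner's bin in 244 pairs (37.0%). Within these pairs the ranks of the 2 sides hardly went together: over the 659 pairs, Spearman's rho between the levels was 0.05 and between the folds 0.09. The rule cut both sides at a minimum level and fold, and many pairs lay near these with few tags. Low rho values are therefore no evidence that the strengths are unrelated. Both are descriptions over pairs that share libraries and the same IgG track, and some share a partner.

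**Figure D2:**
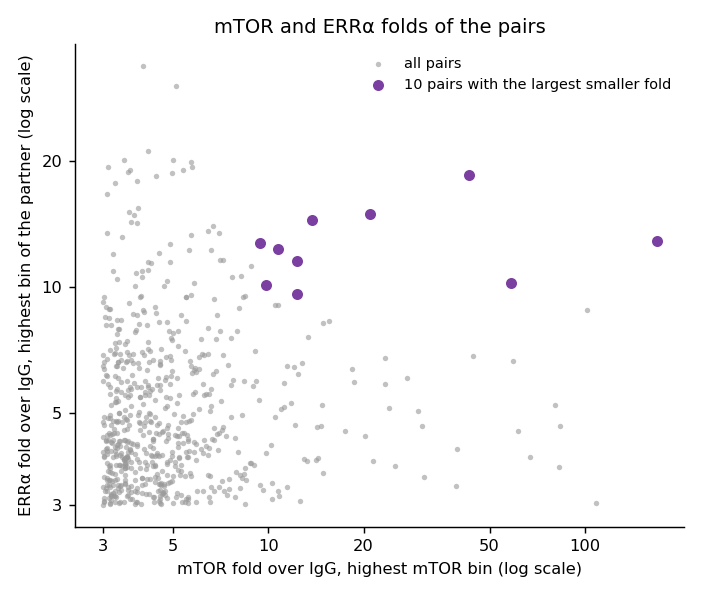
mTOR fold over IgG in the highest mTOR bin (horizontal, log scale) against ERRα fold over IgG in the highest bin of the partner (vertical, log scale), 1 point per pair, 659 pairs, from 1 library per ChIP. Points fill the corner near the 3-fold minimum on both axes, and the 10 named pairs with the largest smaller fold (purple) start at 9.44.

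The pairs ranked by a single fold were lopsided. After the chromosome 14 region above, the largest mTOR folds were at chr14:51710001-51710800, with 86.4 for mTOR, 0.5 for ERRα and 0.6 for IgG (108-fold), and at chr6:38483601-38484400, with 50.6, 0.817 and 0.3 (102-fold). They were followed by chr4:133369201-133370200, with 33.3, 0.3 and 0.2 (83.7-fold), and chr7:52650601-52651800, with 57.9, 1.76 and 0.5 (83.1-fold). The partners of these 4 had smaller folds: ERRα over IgG was 3.04 at chr14:51711401-51711600, 8.80 at chr6:38485401-38486000, 4.65 at chr4:133369001-133369200 and 3.72 at chr7:52652201-52652400. The partners on chromosomes 6 and 4 were above the median ERRα fold of 4.53 and the others below it.

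The largest ERRα folds stood beside mTOR regions of 3.51-fold to 5.11-fold, around the median of 4.31 for all members. At chr8:93927601-93928600 coverage was 3.38 for mTOR, 33.8 for ERRα and 0.807 for IgG (ERRα 33.8-fold, 21.2 to 111), beside the mTOR region chr8:93928801-93929000 at 4.03-fold; mTOR was also called inside this ERRα region, at 3.56-fold. At chr16:20098001-20098800 coverage was 0.6 for mTOR, 11.9 for ERRα and 0.2 for IgG (30.2-fold), beside chr16:20099001-20099400 at 5.11-fold. At chr12:88142601-88143200 it was 1.00, 10.3 and 0.3 (21.1-fold), beside chr12:88142201-88142400 at 4.16-fold. On chromosome 10, mTOR regions at chr10:77760601-77760800 (3.51-fold) and chr10:77761001-77761200 (5.0-fold) shared the partner chr10:77759201-77760200, with 0.722 for mTOR, 20.4 for ERRα and 0.825 for IgG (20.1-fold). At this last partner and at chromosomes 16 and 12 the mTOR to IgG ratio had a counting interval that spanned 1, and no mTOR excess was detectable at this depth in the ERRα bin itself.

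The next comparison asked how often mTOR regions lay this close to ERRα regions, against the room there was. The members were 7.28% of the mTOR regions. Counted by their highest bin, 8.21% of the mTOR regions that peaked outside ERRα regions (705 of 8582) did so within 1000 bp of one, against 2.12% of all covered bins outside ERRα regions, a ratio of 3.88. The ratio was above 1 on each of the 19 autosomes, at 2.46 on chromosome 12, a median of 3.83 and 6.25 on chromosome 14. It ranged from 3.20 to 4.77 over the alternatives tried. With the roles of mTOR and IgG swapped, none of the 124 IgG regions was side by side with an ERRα region and none overlapped one. So few regions say little. High IgG also works against an ERRα call in the same bins, so overlap was nearly excluded by the rule and the swap is no check of the ratio. The covered bins were not matched for genes or open chromatin, and the part of these in the ratio was not tested.

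The excess had no edge at 1000 bp. mTOR regions peaked in 33.2 of every 10000 covered bins directly beside an ERRα region, in 26.9 at 1000 bp, in 20.6 at 1200 bp and in 27.7 at 1600 bp. Over wider classes the value was 28.6 at 0 to 1000 bp, 20.6 at 1200 to 5000 bp, 14.8 at 5200 to 20000 bp, 7.90 at 20200 to 100000 bp and 1.63 farther away. The density was lower in each farther class, so the side-by-side members were the near end of a wide gradient. In the other direction, ERRα regions peaked in 78.6 of every 10000 covered bins at 0 to 1000 bp from an mTOR region, 57.3 at 1200 to 5000 bp and 8.33 beyond 100000 bp. The choice of limit decides who is a member: 107 mTOR regions lay at exactly 1000 bp and 84 at 1200 bp, just outside. The lowest mTOR fold of a member was 3.00 and the lowest level 2.00, while the nearest regions left out for fold and for level stood at 2.997 and 1.999.

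**Figure D3:**
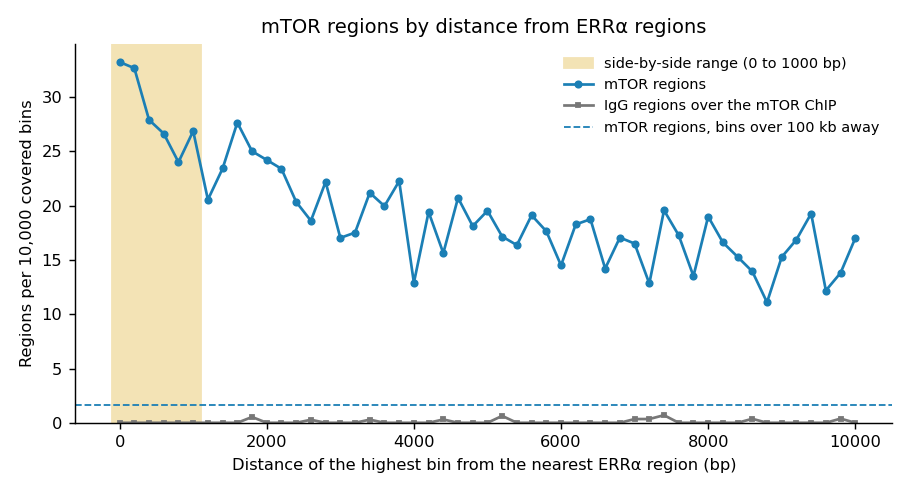
mTOR regions per 10,000 covered 200-bp bins (vertical axis) by the distance of their highest bin from the nearest ERRα region (bp, horizontal axis), with IgG regions called over the mTOR ChIP in grey. The density falls from 33.2 beside ERRα regions towards values of 11.1 to 19.6 between 5200 and 10000 bp, all above the 1.63 found over 100 kb away (dashed), and the shaded side-by-side range shows no edge at 1000 bp.

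Members were spread over all autosomes and over all distances. Chromosome 11 held 61, chromosome 5 held 58 and chromosome 12 held 15; as a share of the mTOR regions of a chromosome they ran from 3.63% on chromosome 1 to 10.2% on chromosome 19. By distance there were 121 pairs whose regions touched, 123 at 200 bp, 119 at 400 bp, 94 at 600 bp, 95 at 800 bp and 107 at 1000 bp. The ERRα region lay at higher coordinates in 326 pairs and at lower coordinates in 333. ERRα regions stood within the limit on both sides of 35 members, and 16 ERRα regions served more than 1 member. After the chromosome 19 region above, the strongest members of the first kind were chr5:37086801-37087600, with 9.14 for mTOR, 0.680 for ERRα and 0.4 for IgG between ERRα regions of 8.29-fold and 3.96-fold, and chr10:92533201-92533800, with 4.67, 0.610 and 0.4 between ERRα regions of 3.75-fold and 8.91-fold.

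The summit distances were set beside the peak widths to describe how far apart the neighbours stood. Each summit was taken inside its own region, so the summit distance could not be shorter than the gap between the regions. The median distance between the mTOR summit and the ERRα summit was 815 bp, with quartiles of 547 and 1124 bp. It was 312 bp where the regions touched and 1347 bp at 1000 bp. The summit distance exceeded the mean of the 2 peak widths, each taken at 50% of the maximum, in 527 of 659 pairs (80.0%). Among the 121 touching pairs this held for 36, so most touching pairs were overlapping slopes at this width. It held in 91 of the 123 pairs at 200 bp, 112 of the 119 at 400 bp and 106 of the 107 at 1000 bp. The peaks of the members were 382 bp wide in the median for mTOR and 419 bp for ERRα. Gaps of 400 bp or more are close to these widths or wider, so there the measure largely restates the distance rule. It says most for pairs that touched or lay 200 bp apart.

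The extremes ran from nearly shared summits to summits far apart. The shortest summit distance was 47 bp, at chr9:20807201-20807400, where coverage was 2.01 for mTOR, 1.98 for ERRα and 0.441 for IgG, and the partner chr9:20807401-20807600 had 2.48, 3.33 and 0.7. ERRα missed the call in the mTOR bin on its level of 1.98 and mTOR missed it in the ERRα bin at 2.98-fold, so that the pair was side by side through the thresholds. The next shortest were chr4:144866001-144866200 with its partner at 53 bp (ERRα 2.89-fold in the mTOR bin) and chr2:31114601-31114800 at 64 bp (1.79-fold). All 3 lost their place when the bins were shifted by 100 bp. The longest distances came from wide or remote partners: 2332 bp at chr2:131059201-131059400, 2260 bp at chr19:43600801-43601000, whose partner chr19:43598001-43600200 was 2200 bp wide and 19.3-fold in ERRα, and 1951 bp at chr3:94160401-94160800.

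In separated pairs, coverage of each ChIP at the midpoint was far below its summit and somewhat above the surroundings. In the 538 pairs separated by 200 bp or more, the median mTOR level was 3.5 at the mTOR summit, 1.0 at the midpoint and 1.1 at the ERRα summit, against 0.773 in flanks 2 to 5 kb away. ERRα in the same pairs was 0.9 at the mTOR summit, 1.0 at the midpoint and 4.4 at its own summit, against 0.792 in the flanks. IgG was 0.5 at the mTOR summit, 0.6 at the midpoint, 0.6 at the ERRα summit and 0.650 in the flanks. Away from its own summit each ChIP was thus low but still above its flank level, both at the midpoint and at the other summit. There was no valley in these medians beyond the 0.1 step of the tracks. The lowest point between the summits had medians of 0.7 for mTOR, 0.6 for ERRα and 0.4 for IgG. A minimum over many positions is low by construction, so it does not decide whether there was a valley. IgG was slightly lower under the mTOR peak than around it. The rule favours bins with low IgG, so this dip is no finding. In the touching pairs the medians formed a slope from each summit to the other, with mTOR at 3.6 at its own summit, 2.0 at the midpoint and 1.5 at the ERRα summit. ERRα there was 1.3 at the mTOR summit, 2.3 at the midpoint and 4.0 at its own summit.

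**Figure D4:**
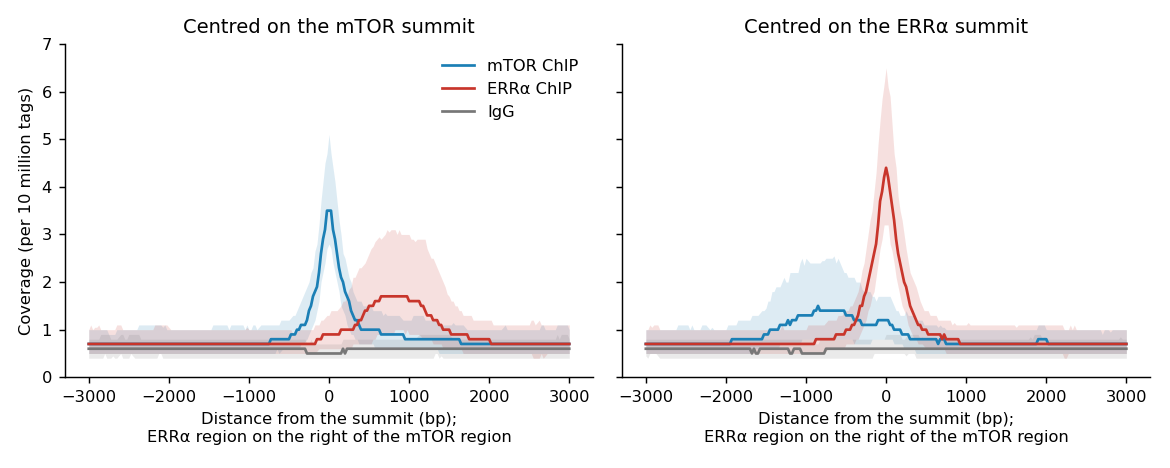
Median coverage (lines) and quartiles (shading) of the mTOR ChIP, the ERRα ChIP and IgG over the 659 pairs, per 10000000 tags, against distance from the mTOR summit (left panel) or the ERRα summit (right panel), turned so that the ERRα region lies on the right. mTOR stands at 3.5 and ERRα at 0.9 at the mTOR summit, ERRα at 4.4 and mTOR at 1.2 at the ERRα summit, and the neighbour appears as a broad rise because its distance varies.

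Each ChIP was also measured at the peak of the other. In the highest mTOR bin of the members the ERRα fold over IgG had a median of 1.51 (quartiles 1.14 and 2.01). At mTOR regions with the nearest ERRα region 1200 to 5000 bp away it was 1.20 (0.962 and 1.58), and at the 6410 regions farther away 1.15 (0.894 and 1.46). In the highest ERRα bin of the partners the median mTOR fold was 1.60 (1.19 and 2.12), against 1.34 at ERRα regions with the nearest mTOR region at 1200 to 5000 bp and 1.25 at the 18647 ERRα regions farther away. Some partners overlapped another mTOR region, while these 2 classes hold no such region. Counted alike, the 723 ERRα regions with an mTOR region within 1000 bp but none overlapping had a median of 1.54. The rule kept ERRα below the call in every mTOR bin of the members, and kept mTOR below it in the ERRα bin except at partners that overlapped another mTOR region. Surroundings differed too. ERRα coverage in the flanks was 0.793 at members and 0.639 at mTOR regions far from ERRα, mTOR coverage there was 0.773 and 0.674, and IgG coverage 0.654 and 0.621. Set over its own flank in place of IgG, ERRα in the highest mTOR bin had a median ratio of 1.06 at members and 1.04 at far regions. These 2 ratios were nearly the same, but the flanks near ERRα regions can hold further ERRα regions. The median number of ERRα regions within 10 kb was 2 at members and 0 at far regions. At mTOR regions with the nearest ERRα region 1200 to 5000 bp away, ERRα flank coverage was 0.949 and the ratio 0.787. This scale therefore cannot show whether a difference was absent. In the other direction a difference remained. mTOR in the highest ERRα bin, over its own flank, had a median of 1.31 at the 723 ERRα regions with an mTOR region within 1000 bp but none overlapping. At far ERRα regions it was 1.18. It was 0.998 at ERRα regions with the nearest mTOR region 1200 to 5000 bp away, whose flanks can hold that region, so the same limit applies.

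These values depended on distance. The median ERRα fold in the mTOR bin was 2.20 in touching pairs, 1.64 at 200 bp, 1.46 at 400 bp and 1.32 to 1.39 from 600 to 1000 bp. The median mTOR fold in the ERRα bin was 2.09, 1.64, 1.57 and 1.36 to 1.49 over the same steps. The second ChIP was thus highest where the regions touched, and from 600 to 1000 bp its medians still stood above the 1.15 and 1.25 of far regions. The far ERRα regions overlapped no mTOR region, while some partners did. The counting interval of ERRα over IgG in the mTOR bin lay above 1 in 85 members (12.9%), among them 44 of the 121 touching pairs, and that of mTOR over IgG in the ERRα bin in 128 (19.4%), among them 49 touching pairs. In the other pairs no excess of the second ChIP was detectable at this depth.

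**Figure D5:**
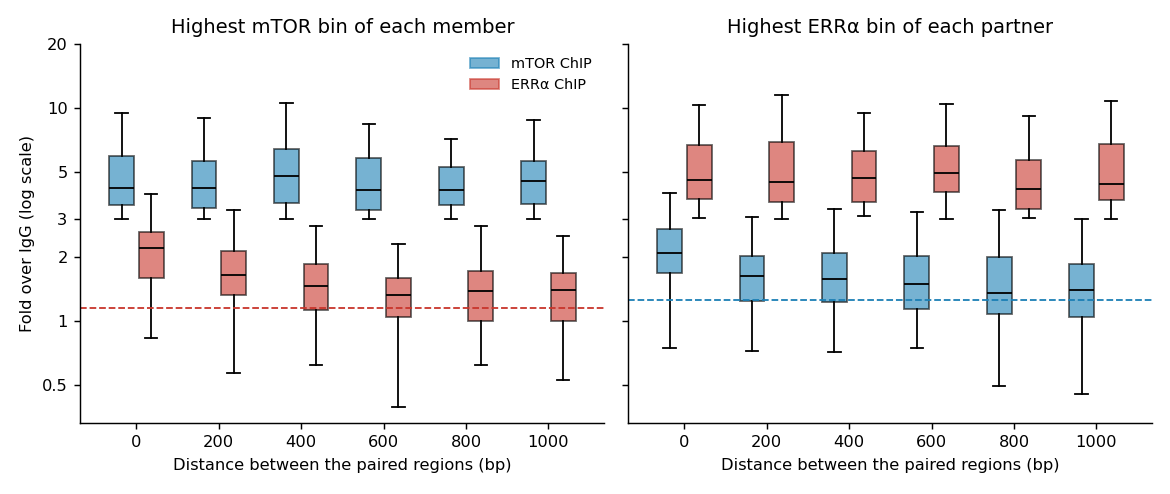
Fold over IgG (log scale) of the mTOR ChIP (blue) and the ERRα ChIP (red) in the highest mTOR bin of each member (left) and in the highest ERRα bin of its partner (right), by distance between the regions (bp); boxes are quartiles with the median, whiskers reach the last pair within 1.5 times the box, points beyond are not drawn, and dashed lines mark the median of the other ChIP at regions farther than 5000 bp. The other ChIP stands highest where the regions touch (2.20 for ERRα, 2.09 for mTOR) and comes down towards the dashed lines at 1.15 and 1.25.

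The ChIPs were also set against each other without IgG, as a description, since the rule fixes which is higher in the mTOR bin of every member and in the ERRα bin of all but the 45 whose partner overlapped another mTOR region. The ratio of mTOR to ERRα had a median of 2.97 in the mTOR bin and 0.319 in the ERRα bin. Its counting interval lay above 1 in the mTOR bin in 512 members and below 1 in the ERRα bin in 528, and both held in 429 (65.1%). Both held in 49 of the 121 touching pairs (40.5%), 76 of the 123 at 200 bp (61.8%) and 82 of the 107 at 1000 bp (76.6%). In 48 members neither interval left 1 on its side, so that no difference between mTOR and ERRα was detectable at this depth in either bin. The ChIPs were within 1.5-fold of each other in the mTOR bin of 57 members, 31 of them in touching pairs.

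The strength and width of the members lay close to those of other mTOR regions. Their median mTOR fold of 4.31 compares with 3.95 at the 544 mTOR regions that overlapped an ERRα region, 4.32 at the 1440 with an ERRα region at 1200 to 5000 bp and 4.52 at those farther away. A fold of 10 or more was reached by 62 members (9.41%), against 9.74% of the overlapping and 10.9% of the far regions. Single-bin regions made up 56.6% of the members, and the median peak width of 382 bp lay between 398 bp for overlapping and 359 bp for far regions. Another mTOR region lay within 10 kb of 39.9% of the members, 37.5% of the overlapping regions, 39.4% of those at 1200 to 5000 bp and 25.4% of the far regions. The members were thus like the other regions near ERRα in this. No test of these differences was possible with 1 library per ChIP.

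On the ERRα side, 723 regions overlapped no mTOR region and had one within 1000 bp, and how common they were was compared across groups of ERRα fold. Of the ERRα regions at 3-fold to 5-fold, 3.06% stood side by side with an mTOR region and 1.19% overlapped one. At 5-fold to 10-fold these shares were 3.88% and 3.33%, at 10-fold to 20-fold 3.93% and 8.38%, and at 20-fold or more 2.61% (7 of 268) and 21.6% (58 of 268). The share side by side stayed between 2.61% and 3.93% while the overlapping share was larger in each stronger group. Stronger regions were also wider, with a median width of 200 bp in the weakest and 800 bp in the strongest group, and the part of width in the overlap was not tested. For mTOR regions the shares side by side were 7.74%, 6.63%, 5.63% and 8.04% in the same groups of mTOR fold, and the overlapping shares were 7.07%, 3.94%, 3.96% and 8.68%; neither share was larger in each stronger group.

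Which regions were members depended on the bin grid more than how many there were. With the bins shifted by 100 bp there were 663 members, but only 453 of the 659 (68.7%) were found again: 34 of the others then overlapped an ERRα region, 47 lay beyond 1000 bp and 125 were no longer called for mTOR. Of the 27 named pairs 15 kept their place, among them chr9:42914001-42914800, chr19:3576001-3576600 and chr6:72533601-72534200. Of the 10 with the largest smaller fold, chr15:82185201-82185800, chr14:51684201-51685200 and chr17:46576001-46576400 did not. The median summit distance was then 824 bp.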

How the data were processed

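The 3 groups, 1 library each, were read from the sample titles. What the authors deposited is a signal track for each library, and per the file headers its coverage was set to a total of 10000000 tags. The submitters' processing notes list build mm9 and the tools BWA 0.5.9 and MACS 1.4.1 without saying what each was used for. The sources used here do not give the tag extension or how duplicates were treated. Values are rounded to 0.1, so that folds at low coverage move in coarse steps.

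Coverage was averaged over 200-bp bins with uncovered positions as 0, and a fold is the ratio of coverages after adding 0.2 to each. Tags per bin were approximated with a tag length of 150 bp, and ratios carry exact (Clopper-Pearson) 95% intervals without the added 0.2. A summit is the middle of the highest interval of a track within a region. With 1 library per group no test was possible, and no p-value is given. The members and lists were chosen with earlier results of these data known. Named pairs follow a written rule: the 10 with the largest smaller fold, the 5 with the largest fold of each ChIP, the 3 longest and 3 shortest summit distances, and the 3 strongest members between ERRα regions. Planned gene names, gene lists and motifs were not analysed here, since no mm9 reference was used. The caller was run on simulated data with planted pairs, where full recovery was required only at 20-fold. Most members were weaker, so that run is no check of them. Alternatives changed 1 choice at a time, and those leaving out regions of 1 bin or partners that overlap another mTOR region were added after seeing the data. All steps ran in Python 3.11.15 with SciPy 1.17.1, pandas 2.3.3, NumPy 2.4.6 and Matplotlib 3.10.9.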

Additional observations from a re-analysis of the deposited data

Results flagged for a closer look

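Chromosome X was outside the rule, which covered chromosomes 1 to 19. Under the same settings 3 side-by-side mTOR regions were found there, among 53 mTOR and 135 ERRα regions. With the roles of mTOR and IgG swapped there were 0, which says as little as on the autosomes. At chrX:35819201-35819400 coverage was 3.67 for mTOR, 0.538 for ERRα and 0.256 for IgG, and at chrX:35820201-35820400 it was 2.67, 0.538 and 0.3. Both had the partner chrX:35819401-35819800 between them, with 0.3 for mTOR, 3.21 for ERRα and 0.459 for IgG. At chrX:101025401-101025600 coverage was 3.10, 0.3 and 0.2, and its partner chrX:101024201-101024600 had 0.3, 2.06 and 0.357.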

How the results depend on the processing

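No value below has a replicate check. No paired analysis was possible because each group was 1 library without a replicate number, and for the same reason no replicate could be left out. The intervals used below treat regions and pairs as independent, though they share libraries and some share a partner. The alternatives reuse the same reads, so staying inside an interval is only a yardstick and no measure of replicate spread. With 659 members (7.28% of mTOR regions), a summit distance of 815 bp, an ERRα fold of 1.51 in the mTOR bin, an mTOR fold of 1.60 in the ERRα bin, an mTOR fold of 4.31 and a near ratio (share of mTOR regions over share of covered bins within the limit) of 3.88 as reported, the values that moved were as follows; a count is given as moved past 1.5 times, any other value outside its 95% counting or rank interval.

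A 5-fold minimum gave 133 members (3.55%), medians of 1.60, 1.74 and 7.10 for the 3 folds in that order, and a near ratio of 4.77. A minimum level of 1.0 gave 1439 members (7.87%), 1.59, 1.71 and 3.57, and 3.20. A minimum level of 4.0 gave 100 members (3.45%), a summit distance of 773 bp, 1.65 for ERRα in the mTOR bin, an mTOR fold of 7.80 and a near ratio of 4.40. Bins of 100 bp gave 1210 members (8.35%), 720.5 bp, 1.57 for ERRα in the mTOR bin and an mTOR fold of 3.98. Calling against the genome-wide mean in place of IgG gave 1737 members (10.7%), 728 bp and a near ratio of 4.21. The fold medians there, still taken over IgG, were 1.19, 1.25 and 2.67, since the call no longer held the fold over IgG at its minimum. Adding 0.4 in place of 0.2 gave 443 members and moved the share to 6.22%, ERRα in the mTOR bin to 1.43 and the mTOR fold to 4.0. Scaling by the median bin gave 878 members and moved the share to 8.13% and ERRα in the mTOR bin to 1.61. A limit of 400 bp gave 363 members (4.01%), 575 bp, 1.75 for ERRα in the mTOR bin, 1.74 for mTOR in the ERRα bin and a near ratio of 4.24, and a limit of 2000 bp gave 1125 members (12.4%), 1279 bp, 1.41 and 1.52. Leaving out regions of 1 bin gave 185 members (4.34%), 957 bp, 1.43, 1.5 and 6.22 for the folds, and a near ratio of 4.47. The cause was not tested. Shifting the bins, merging across 1 bin, leaving out bins with IgG above 2.0 and leaving out partners that overlap another mTOR region moved none of these 7 values that far. The near ratio is counted without the pairing, so leaving out those partners could not change it and is no check of it. The near ratio was above 1 under each alternative run. Depth limits the folds: IgG held about 4.75 tags in the median mTOR bin.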

Other observations

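In 7 cases members stood on both sides of the same ERRα region, the mirror image of the mTOR regions between ERRα regions. The strongest mTOR signal of these was beside chr13:51198601-51199000, where ERRα coverage was 4.17 against 0.734 in IgG (4.67-fold) and the mTOR folds of the flanking members were 4.47 and 12.1. At chr7:52072601-52073400 ERRα was 3.25-fold over IgG, at 3.55 against 0.953, between mTOR regions of 5.94-fold and 6.22-fold. In the remaining 5 the ERRα folds were 3.05 to 4.75 and the mTOR folds 3.16 to 4.27.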
